A study of Homo sapiens with 9 samples.

Results

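The regions described here were called as ATAC-seq peaks in MDA-MB-231 cells, a human triple-negative breast cancer line. Peaks were called in them with shRNA against EZH2 and with shRNA against E2F1, and not with Control shRNA. They were selected on this presence of called peaks. Merging overlapping peaks (1 bp or more) of the 2 Control shRNA, 2 shEZH2 and 2 shE2F1 libraries gave 112347 regions, and a region was kept when both shEZH2 and both shE2F1 libraries had a peak in it and neither Control shRNA library did. This rule left 208 regions, 0.185% of all, referred to below as the gained regions. For comparison, shEZH2 considered by itself met the same requirement in 868 regions (0.773%) and shE2F1 in 3061 (2.72%). The number was 454 when every list was limited to its 58626 strongest peaks, and 263 to 714 when 1 of the 6 libraries was left out, with 714 reached without the second Control shRNA library. The same Control shRNA libraries stand behind both of these counts, so the 208 shared regions cannot be read as 2 independent observations, and absence from Control shRNA is a property of the rule and not a finding.

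ATAC-seq marks accessible DNA, because the Tn5 transposase inserts sequencing adapters where DNA is free of nucleosomes. EZH2 is the methyltransferase of Polycomb repressive complex 2 (PRC2), which places the repressive mark H3K27me3 on developmental genes, and SUZ12 is a core subunit of that complex. E2F1 is a transcription factor of the cell cycle, and EZH2 can also act away from PRC2. Sites that open far from genes are often enhancers, and in basal breast cancer cells many enhancers are bound by AP-1 and TEAD factors, the latter being the DNA-binding partners of YAP and TAZ.

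The cells carried Control shRNA, shEZH2 or shE2F1 (2 libraries each) or shSUZ12 (1 library), delivered by lentivirus, or were treated with DMSO or GSK126 (1 library each). Transduction lasted 24 h and puromycin selection (2 μg/ml) another 72 h, and each library came from 50000 cells and 7 cycles of PCR. GSK126 is an inhibitor of the methyltransferase activity of EZH2, and DMSO is its solvent. The DMSO library is called WT in another of its labels and no lentivirus is stated for it, so it differs from the shRNA libraries in more than 1 way. All libraries came from 1 cell line, nothing in the labels says whether replicates were separate cultures, and peak lists cannot show how far EZH2, E2F1 or SUZ12 was depleted.

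The lists held 58626 to 85812 peaks, the fewest in the second shEZH2 library and the most in the second shE2F1 library. The most frequent local background, a value that grows with depth, was 1.41 to 2.18 tags, and the fewest tags called at that background were 8 or 9. A peak that is missing from a list can therefore be a site just under the caller's limit. Promoters of the mesenchymal markers VIM, CD44, AXL, CAV1, ITGB1 and ZEB1 had a peak in 9 of 9 libraries, and those of the haematopoietic markers PTPRC, CD3E and SPI1 had one in 0 of 9. Of 8 luminal markers, GATA3 had a promoter peak in 0 libraries and the other 7 had one in 7 to 9.

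Sequences around the summits show what the gained regions look like. Each window covers 201 bases centred on the summit of the strongest peak of the region, on the plus strand of GRCh38, and capitals mark the AP-1 word TGANTCA and the TEAD word GGAATG, read on either strand. The first 3 windows belong to the gained regions with the highest peak values. The window near EEPD1 is chr7:36162087-36162287, that near CCDC85A is chr2:56288029-56288229 and that near STAC is chr3:36445015-36445215.
EEPD1: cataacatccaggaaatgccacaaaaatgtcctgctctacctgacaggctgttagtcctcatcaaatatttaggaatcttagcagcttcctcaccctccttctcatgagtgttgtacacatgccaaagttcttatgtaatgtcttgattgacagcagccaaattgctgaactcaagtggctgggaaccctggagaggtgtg
CCDC85A: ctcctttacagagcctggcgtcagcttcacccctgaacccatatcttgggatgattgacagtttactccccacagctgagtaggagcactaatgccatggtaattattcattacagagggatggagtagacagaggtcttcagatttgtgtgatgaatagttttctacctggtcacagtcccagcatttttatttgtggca
STAC: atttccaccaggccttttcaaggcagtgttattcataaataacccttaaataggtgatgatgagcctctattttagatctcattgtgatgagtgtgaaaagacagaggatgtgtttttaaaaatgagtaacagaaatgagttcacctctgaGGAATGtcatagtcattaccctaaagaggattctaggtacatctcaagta
The next 3 are high-ranking windows that hold both words, a combination that was more frequent in the gained regions than in all regions. They are chr9:108296233-108296433 near ACTL7B, chr10:99661462-99661662 in ENTPD7 and chr10:127148964-127149164 in INSYN2A.
ACTL7B: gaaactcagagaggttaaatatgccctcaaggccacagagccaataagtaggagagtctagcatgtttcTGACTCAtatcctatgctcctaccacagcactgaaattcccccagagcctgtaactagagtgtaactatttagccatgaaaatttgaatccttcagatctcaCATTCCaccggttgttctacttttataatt
ENTPD7: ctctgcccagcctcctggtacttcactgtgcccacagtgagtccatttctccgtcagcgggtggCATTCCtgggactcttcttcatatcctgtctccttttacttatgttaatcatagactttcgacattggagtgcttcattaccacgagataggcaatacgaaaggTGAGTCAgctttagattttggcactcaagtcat
INSYN2A: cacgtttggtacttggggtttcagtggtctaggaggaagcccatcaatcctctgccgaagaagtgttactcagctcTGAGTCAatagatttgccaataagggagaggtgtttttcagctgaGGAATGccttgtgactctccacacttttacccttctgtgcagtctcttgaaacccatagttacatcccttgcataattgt
The windows near EEPD1 and CCDC85A hold neither word, although these 2 regions ranked highest. GC content of the 6 windows ran from 36.3% near STAC to 46.8% in ENTPD7, and the ENTPD7 window holds 5 CpG dinucleotides where the EEPD1 and STAC windows hold 0.

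The gained regions were modest peaks. Their median fold enrichment over local background was 5.83 and 5.82 in the 2 shEZH2 libraries and 5.99 and 5.98 in the 2 shE2F1 libraries, which are values in the libraries that chose them and carry no test. Ranked among all peaks of its own library, the median gained region stood at the 38.0th and 32.3rd percentile of fold enrichment with shEZH2 and at the 41.5th and 42.1st with shE2F1, under the middle of each list. The tags at the summit, computed from the deposited fold enrichment and −log10 p, had medians of 17 to 24 in the 4 libraries. Taking for each region the lowest −log10 q of its 4 knockdown peaks, the median was 6.69 and the range 2.54 to 17.2. Of the 208 regions, 169 (81.3%) kept a −log10 q of at least 5 in all 4 libraries and 20 (9.62%) kept one of at least 10. None was above the 75th percentile of fold enrichment in all 4 libraries, and 13 were above the 50th in all 4. The strongest peak came from a shEZH2 library in 90 regions and from a shE2F1 library in 118.

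**Figure D1:**
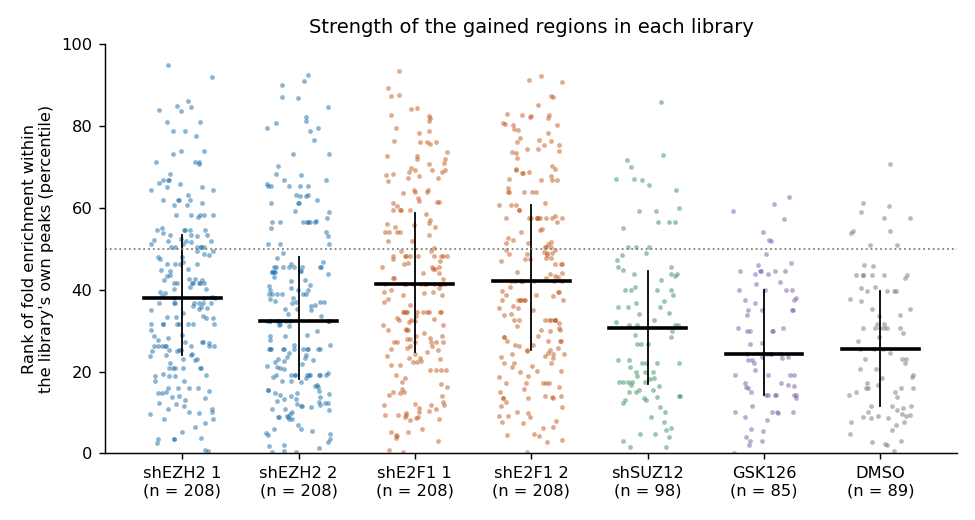
Rank of each gained region among all peaks of the library (y axis, percentile of fold enrichment, 50 marked by the dotted line) in the 4 libraries of the rule and the 3 single libraries (x axis). Each point is 1 region with a peak there, the horizontal bar is the median and the vertical line the interquartile range. Medians lie between 24.4 in GSK126 and 42.1 in the second shE2F1 library.

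The rule merges overlapping peaks, so the 4 knockdown peaks of a region lie near one another by construction. Summit spread was not computed for the other sets. In 203 regions each of the 4 libraries had exactly 1 peak, and the summits of the 4 peaks lay within 100 bp of one another in 149 regions (71.6%) and within 50 bp in 69. The median spread of the summits was 70 bp, and in 22 regions it exceeded 200 bp. The merged regions had a median width of 413.5 bp (interquartile range 338.75 to 555.75), against 421 bp over all regions, 307 bp for the 363 regions gained with shEZH2 only and 332 bp for the 2262 gained with shE2F1 only. A region built from 4 peaks is wider by construction than one built from 2, and the other 8722 regions with a peak in exactly 4 of the 6 libraries had a median of 411 bp. The nearest Control shRNA peak was a median of 6.26 kb away. It lay within 500 bp of 23 gained regions and was over 10 kb from 75. The regions within 500 bp include 3 that are described in this text, at INSYN2A (176 bp), TWIST1 (314 bp) and the U2SURP promoter (144 bp).

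At the limit of calling, the 5 gained regions with the lowest values were those nearest to ZNF618 (lowest −log10 q 2.54), FOLR3 (2.59), TTC28 (2.92), TCP10L (3.22) and PPP2R3A (3.30). The 5 regions that came closest to being gained, with peaks in all 4 knockdown libraries and 1 weak Control shRNA peak, were nearest to PPP1R3C (−log10 q 2.81 in the Control shRNA library), GPR55 (3.41), ZBED5 (3.46), MAGEF1 (3.47) and CD48 (3.55). In all, 884 regions missed the rule because of 1 Control shRNA library. Another 888 had peaks in 3 of the 4 knockdown libraries and in no Control shRNA library, and the library without a peak was the second shEZH2 library, the one with the shortest list, in 462 of them.

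The regions named next follow the order of the lowest −log10 q, in which a region of modest fold enrichment can stand high. The first lies in an intron of EEPD1, a nuclease-family protein of DNA repair, 8.75 kb downstream of its start site (chr7:36162002-36162442). Its fold enrichment was 6.45 and 7.95 in the shEZH2 libraries and 8.48 and 10.3 in the shE2F1 libraries. GSK126 had a peak of 4.87 there, and the shSUZ12 and DMSO libraries had none. The second lies in an intron of CCDC85A (chr2:56287956-56288367), with 12.5 and 11.8 in shEZH2, 9.54 and 7.87 in shE2F1 and 12.5 in shSUZ12. Neither the GSK126 nor the DMSO library had a peak in it. Thus the 2 highest-ranked regions differed in which single library shared them.

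The third lies in an intron of STAC (chr3:36444728-36445285), an adaptor protein of voltage-gated calcium channels, with fold enrichments of 10.7, 7.40, 7.34 and 9.01 in the knockdown libraries. It was also called at 6.04 in shSUZ12, 9.30 in GSK126 and 7.88 in DMSO, so the DMSO value lay inside the range of the knockdowns although both Control shRNA libraries lacked a peak. The fourth is nearest to the start of TTC12 but lies in an intron of NCAM1, a neural adhesion molecule (chr11:113190261-113190917). There the knockdown libraries had 6.88, 7.69, 7.96 and 9.36, and shSUZ12, GSK126 and DMSO had 5.88, 6.75 and 4.02, each under all 4 knockdown values.

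Of the next 6, the region nearest to ACTL7B is intergenic, 560 kb from that start site, and had fold enrichments of 7.24 to 8.79 in the knockdown libraries, 5.47 in shSUZ12 and 8.61 in DMSO. The region upstream of MARCO, a scavenger receptor of macrophages, had 7.48 to 11.3 in the knockdown libraries and 4.67 in DMSO. An intronic region of MTUS1, a microtubule-associated protein, had 7.47 to 10.0 in the knockdown libraries and 4.83 to 5.74 in the 3 single libraries. The region nearest to MAGEA9, a cancer-testis antigen gene, had 7.47 to 10.4 in the knockdown libraries. Regions in coding exon 3 of ENTPD7, an ectonucleotidase, and in overlapping introns of DOCK1 and INSYN2A complete the 10 highest-ranked. Their fold enrichments were 4.49 to 5.52 at ENTPD7 and 4.51 to 5.38 at INSYN2A. In each knockdown library both lay below the median of the gained regions. All 10 had a peak in at least 1 of the 3 single libraries, and 8 of them had one in DMSO. Of all regions, 28.4% had no peak in any of these 3 libraries and 61.8% had one in DMSO. Of the gained regions, 27.4% had none and 42.8% had one in DMSO, and 10 regions are few to set beside such shares.

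The position near MAGEA9 needs a caution, because reads were aligned with up to 4 alignments reported per read. All of the 31-base words in its summit window occur more than once in the genome, with a median of 2 copies, so its tags cannot be assigned to 1 locus. Another 4 gained regions, nearest to KCNJ18, NBPF12, NPIPA7 and DNAJB9, had at least 50% of their words repeated. These 5 regions made up 2.40% of the gained regions, against 2.82% of the other regions with a peak in 4 of 6 libraries, and 175 gained regions (84.1%) had no repeated word.

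Gained regions lay far from the start sites of genes. Their median distance to the nearest start site of a protein-coding gene was 60.8 kb, which fell to 20.5 kb when genes of every type were used. The distance to protein-coding start sites was 32.4 kb over all regions, 38.2 kb for the other regions with 4 of 6 peaks and 33.8 kb for the 2118 regions lost in both knockdowns. The distance was over 100 kb for 78 regions (37.5%, 95% Wilson interval 31.2 to 44.3), where 23.4% of all regions were that far. Summits fell between protein-coding genes in 128 regions, in introns in 75, in coding exons in 3 and in untranslated exons in 2. Those inside a protein-coding gene made up 38.5%, against 44.5% of all regions, and those in introns 36.1% against 39.6%. The regions gained with only 1 of the knockdowns were also distal, at a median of 54.9 kb with shEZH2 and 47.4 kb with shE2F1. Intervals given here cover counting error over regions only, and neighbouring regions share libraries.

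**Figure D2:**
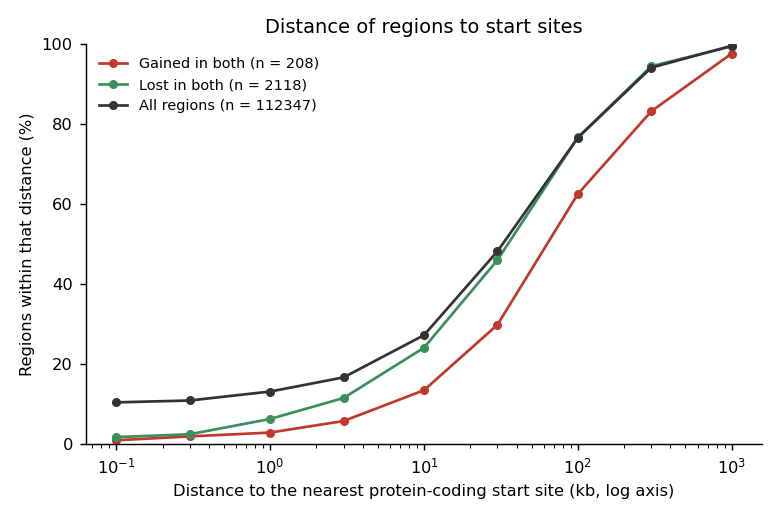
Share of regions (y axis, %) that lie within a given distance of the nearest protein-coding start site (x axis, kb, log scale), for the gained regions, the regions lost in both knockdowns and all regions. Within 10 kb the curve of the gained regions reaches 13.5%, and 62.5% of them lie within 100 kb.

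Promoters were few. Only 6 gained regions (2.88%, 1.33 to 6.15) lay within 1 kb of a protein-coding start site, against 13.1% of all regions and 5.57% of the other regions with 4 of 6 peaks. The shares among regions gained with shEZH2 only and shE2F1 only were 2.20% and 2.17%, so a low share of promoters was shared by the 3 gained sets. The 6 promoters were those of U2SURP, a spliceosome-associated protein, KRTAP4-2, a hair keratin-associated protein, MFAP4, a matrix protein of elastic fibres, AHDC1, a DNA-binding protein, HHLA2, an immune checkpoint ligand of the B7 family, and OR1N1, an olfactory receptor. With start sites of every transcript of protein-coding genes the share was 6.25%, and with 250 bp around summits in place of peaks, which gave 318 regions, it was 15.4%.

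The promoter values varied in who shared them. The KRTAP4-2 promoter had fold enrichments of 7.05 and 7.90 in shEZH2, 5.91 and 5.35 in shE2F1 and no peak in any single library. At the U2SURP promoter the knockdown libraries had 3.77 to 5.12, and the shSUZ12, GSK126 and DMSO libraries had 4.84, 4.34 and 4.08, within that range. The AHDC1 region, which spans the start site, had its highest value outside the knockdowns, 4.64 in DMSO against 2.77 to 4.03 in the knockdown libraries. The MFAP4 promoter was called in shSUZ12 (3.95) and DMSO (3.35), that of HHLA2 in GSK126 (5.69) and DMSO (5.02), and that of OR1N1 in shSUZ12 (4.50) alone.

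Few gained regions lay near one another. Spacing was not counted for the other sets, and how much of it follows from the number of regions was not tested. No 3 gained regions lay within 100 kb of one another, 0 lay within 10 kb of another gained region, and 36 had another within 1 Mb. The 6 regions within 100 kb of another formed 3 pairs, 1 between COPS8 and COL6A3, 1 inside MITF and 1 inside SPOCK1. The 208 regions had 202 different nearest protein-coding genes, and 6 genes were nearest to 2 regions each, DAP, GATA3, MITF, REELD1, RGMB and SPOCK1. MITF is the master regulator of the melanocyte lineage, and its 2 intronic regions lie 20.4 kb apart. The one nearer the start had 3.85 to 5.56 in the knockdown libraries and a peak in all 3 single libraries, and the other had 4.30 to 5.83 and a peak in DMSO alone (3.29).

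Both regions nearest to GATA3, the regulator of luminal breast epithelium, had no peak in any single library. One lies 348 kb downstream of its start (chr10:8402523-8402782) with fold enrichments of 5.77, 6.36, 6.12 and 4.77, and the other lies 1104 kb downstream (chr10:9158690-9159054) with 5.09, 12.5, 8.39 and 11.3. At such distances the nearest gene need not be the gene that a site serves, and the GATA3 promoter itself had no peak in any library. By chromosome, the largest departures from the spread of all regions were chromosomes 3 (21 regions, 10.1% against 6.27%), 4 (18, 8.65% against 4.55%) and 19 (2, 0.962% against 4.11%), and the X chromosome held 1.

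Among gene lists of known function, the nearest genes included 6 PRC2-associated developmental regulators, 2.88% of the gained regions (1.33 to 6.15) against 0.585% of all regions. These were ISL1, LMX1B, NR2F1, NR2F2, TFAP2B and TWIST1, transcription factors that specify tissues in the embryo. Their distances from the start sites ran from 47.6 kb at LMX1B to 639 kb at NR2F2, and none was at a promoter. The gained regions as a group lay farther from start sites than all regions did, and the part of that in this share was not tested. All 6 also had a peak in shSUZ12, 2 of them (TWIST1 and NR2F2) in GSK126 and 1 (TFAP2B) in DMSO. These libraries had a peak in 47.1%, 40.9% and 42.8% of the gained regions and in 59.1%, 56.9% and 61.8% of all regions, and 6 regions are few to set beside such shares.

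TWIST1, a driver of mesenchymal state, had its region 97.2 kb downstream (chr7:19020073-19020450), with fold enrichments of 8.33 and 8.44 in shEZH2, 5.88 and 6.36 in shE2F1, 6.86 in shSUZ12 and 5.52 in GSK126. A Control shRNA peak lay 314 bp from this region. The region beyond TFAP2B (chr6:51292598-51293009) had 6.79, 7.19, 7.99 and 10.4 in the knockdown libraries, 9.71 in shSUZ12 and 6.46 in DMSO. The shSUZ12 value there exceeded 3 of the 4 knockdown values. The ISL1 region (chr5:51484373-51484691) had 4.75 and 4.99 in shEZH2, 8.73 and 8.28 in shE2F1 and 4.83 in shSUZ12. In this region the 2 shE2F1 values were the higher ones, whereas at NR2F1 (chr5:93099864-93100325) the shEZH2 values of 7.77 and 8.45 exceeded 6.44 and 5.35 in shE2F1.

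Neural and synaptic adhesion genes were nearest to 5 gained regions (2.40% against 0.685% of all regions), namely NEGR1, LRP1B, EPHA5, CSMD3 and FLRT2. Of these 5 regions, 3 had no peak in any single library, as had 27.4% of the gained regions and 28.4% of all regions. Mesenchymal and matrix genes were nearest to another 5 (2.40% against 0.855%), namely COL6A3 and COL12A1, which encode collagens, ADAMTS6, a matrix protease, INHBA, an activin subunit, and THBS1, thrombospondin. Of those, 3 had a peak in shSUZ12, 0 in GSK126 and 2 in DMSO, where all regions had one in 59.1%, 56.9% and 61.8%. No gained region was nearest to a gene of the cell cycle and E2F list (0 of 208, against 0.197% of all regions), of the inflammatory and interferon list (0.247%) or of the AP-1 and immediate early list (0.485%). At shares that low among all regions, 208 regions are too few to show an absence. The luminal and basal list gave 2 regions, both at GATA3.

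The single libraries are measurements that the rule did not use. The shSUZ12 library had a peak in 98 of the 208 gained regions (47.1%, 40.5 to 53.9), against 59.1% of all regions. The GSK126 library had one in 85 (40.9%, 34.4 to 47.7), against 56.9%, and the DMSO library in 89 (42.8%, 36.3 to 49.6), against 61.8%. Each share was below that of all regions, and below the 64.1%, 60.4% and 72.5% of the other regions with 4 of 6 peaks. By definition, every one of those other regions has a peak in at least 1 Control shRNA library, and no gained region has one. How much of the lower shares comes from this selection was not tested. Every share of the gained regions was above those of the regions gained with 1 knockdown only, which were 18.2%, 13.8% and 17.4% for shEZH2 and 13.9% (shSUZ12), 12.0% (GSK126) and 18.5% (DMSO) for shE2F1. Regions with peaks in 4 libraries and those with peaks in 2 differ in more than their knockdowns, and the part of peak strength in this difference was not tested.

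**Figure D3:**
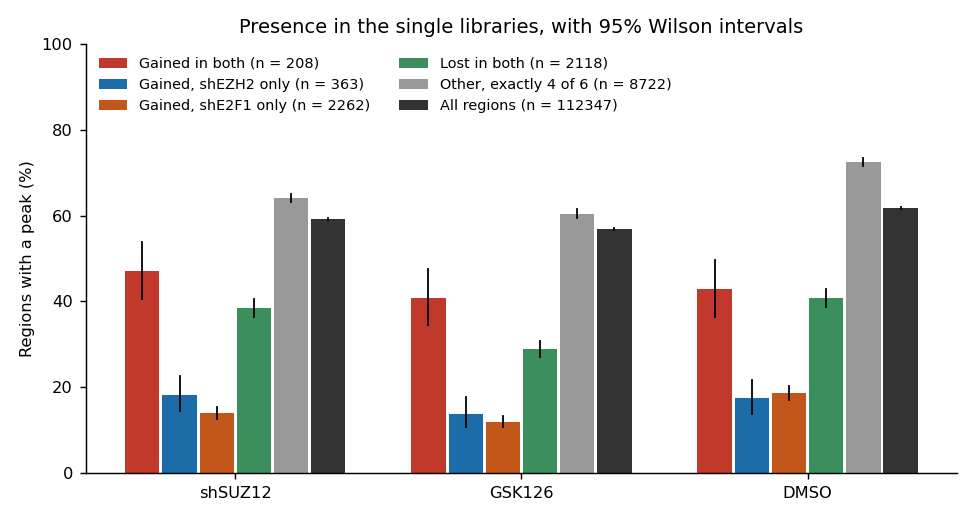
Share of regions with a peak (y axis, %) in the shSUZ12, GSK126 and DMSO libraries, for the gained regions and 5 other sets. Bars are shares and vertical lines 95% Wilson intervals. The gained regions stand at 47.1%, 40.9% and 42.8%, between the regions gained with 1 knockdown and all regions.

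Region by region, the interval of the difference between shSUZ12 and DMSO included 0. Both libraries had a peak in 53 gained regions, shSUZ12 alone of the pair in 45 (21.6%, where 7.15% of all regions had that pattern), DMSO alone in 36 (17.3%, against 9.8%) and neither in 74. The difference in presence was 4.33 percentage points in favour of shSUZ12, with an exact interval of −4.60 to 12.9. Over all regions the difference was −2.65 points and over the other regions with 4 of 6 peaks −8.40 points. The rule without the first or the second Control shRNA library, or without the second shEZH2 library, turned the difference to −3.51, −6.16 and −2.08 points. Of these, the interval without the second Control shRNA library, −10.6 to −1.61, did not include 0. It held the −2.65 points of all regions given above, which came from the merge of all 6 libraries. With 1 library each the comparison concerns these libraries, and there is no replicate check.

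Between GSK126 and DMSO the interval of the difference also included 0. Both had a peak in 55 gained regions, GSK126 alone in 30 (14.4%, against 4.96% of all regions), DMSO alone in 34 (16.3%, against 9.89%) and neither in 89. The difference was −1.92 points, with an exact interval of −9.67 to 6.01, where all regions gave −4.93 and the other regions with 4 of 6 peaks −12.1. It was −8.53 points (−13.1 to −3.72) without the first Control shRNA library, −8.26 (−12.2 to −4.1) without the second and −5.95 (−10.3 to −1.45) without the second shEZH2 library, each with an interval under 0. Each of these intervals held the −4.93 points of all regions given above. That value came from the merge of all 6 libraries and was not computed again without a library. The direction depended on list length: with each list limited to its 68756 strongest peaks, the length of the GSK126 list, the difference was 7.69 points for GSK126 and 9.62 for shSUZ12, with the exact intervals −0.422 to 15.1 and 0.529 to 18.0. Under the same limit all regions gave −1.46 and −1.47 points, and the other regions with 4 of 6 peaks −4.83 and −5.70. Each of these lay below the matching interval, which covers counting error only. Between shSUZ12 and GSK126 the difference was 6.25 points, with an interval of −3.01 to 15.1.

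Strength was split nearly evenly. In the 53 regions called in both shSUZ12 and DMSO, the percentile rank of fold enrichment was higher in shSUZ12 in 27 and lower in 26. In the 55 called in both GSK126 and DMSO, it was higher in GSK126 in 28 and lower in 27. Over all regions called in both libraries, it was higher in shSUZ12 in 29694 and lower in 28712, and higher in GSK126 in 25003 and lower in 33296. The median fold enrichment was 5.44 in shSUZ12, 5.69 in GSK126 and 5.38 in DMSO, over the regions with a peak there. Summits in the single libraries lay a median of 41 bp (shSUZ12), 25 bp (GSK126) and 24 bp (DMSO) from the strongest knockdown summit. Only peaks that overlapped the region were measured, so they lie near it by construction, and this distance was not computed for the other sets.

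Combined, 57 gained regions (27.4%, 21.8 to 33.8) had no peak in any of the 3 single libraries, 65 had one in 1 library, 51 in 2 and 35 (16.8%, 12.4 to 22.5) in all 3. Among the other regions with 4 of 6 peaks, 10.2% had none and 38.3% had all 3, and over all regions the shares were 28.4% and 47.5%. A peak in shSUZ12 alone was the most frequent of the single patterns, with 32 regions (15.4%, against 4.87% of all regions). GSK126 alone had a peak in 17 (8.17%, against 2.68%) and DMSO alone in 16 (7.69%, against 5.41%). In the same order, the shares were 7.05%, 4.12% and 9.80% of the other regions with 4 of 6 peaks. They were 12.5%, 5.48% and 12.9% of the regions lost in both knockdowns. A total of 13 gained regions (6.25%, against 2.28% of all regions) had a peak in both shSUZ12 and GSK126 and none in DMSO. This share was close to the 6.17% of the other regions with 4 of 6 peaks and the 5.15% of the lost regions. Besides TWIST1 and NR2F2, the 13 regions included those nearest to PLK2, a Polo-like kinase, and CBLB, a ubiquitin ligase, 2 genes named here after their values were seen. The lowest −log10 q over the knockdown libraries had a median of 6.33 in regions with no single-library peak and of 6.76, 6.76 and 6.25 in those with 1, 2 and 3, without an order by the number of sharing libraries.

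**Figure D4:**
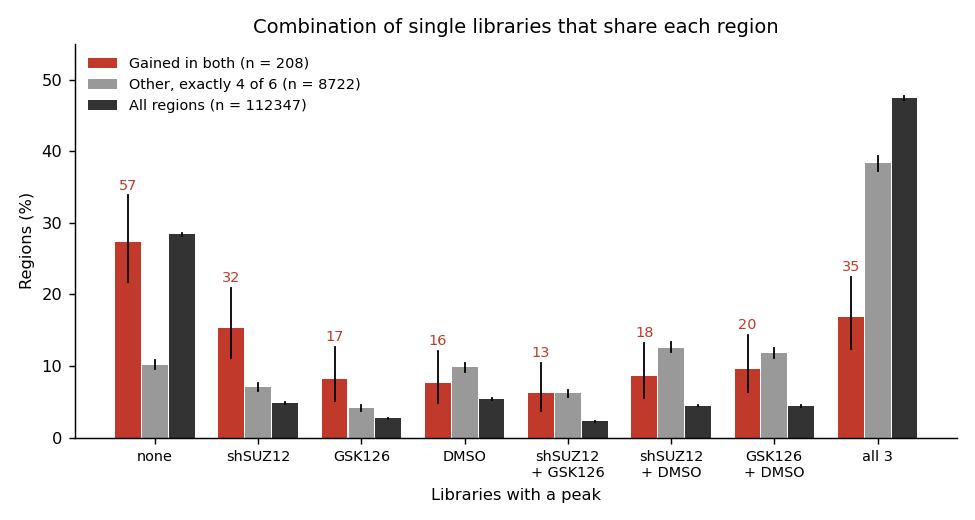
Share of regions (y axis, %) with each combination of peaks in shSUZ12, GSK126 and DMSO (x axis), for the gained regions, the other regions with a peak in exactly 4 of the 6 libraries and all regions. Numbers over the bars count gained regions and vertical lines are 95% Wilson intervals. The combination with no peak holds 57 gained regions and that with all 3 holds 35.

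By lowest −log10 q, the first 10 of the 57 regions seen in the knockdown libraries alone were nearest to LHFPL2, HAO1, RSPH9, CEACAM5, CAPSL, LRP1B, NEGR1, LPAR1, EPHA5 and GALNT15. The intronic region of LHFPL2 (chr5:78615711-78616125) had fold enrichments of 7.13, 7.48, 7.86 and 6.52. An intronic region of LRP1B, a large receptor of the LDL receptor family (chr2:141923683-141924559), had 10.6, 8.80, 6.79 and 7.24, and the region upstream of NEGR1, a neuronal adhesion protein, had 9.84, 10.8, 8.79 and 5.98. At both, the 2 shEZH2 values were the highest. The region in EPHA5, an ephrin receptor, had its highest value, 10.4, in the second shE2F1 library, with 7.13, 8.31 and 6.39 in the others. The region 5.96 kb upstream of CEACAM5, the carcinoembryonic antigen, had 4.83 to 5.53. Absence from 5 lists in these 10 means that no peak was called there, not that the site was closed.

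Motif words at the summit differed from those of the average open region. The AP-1 word TGANTCA, its own reverse complement, was within 100 bp of the summit in 98 gained regions (47.1%, 40.5 to 53.9), against 32.0% of all regions and 35.5% of the other regions with 4 of 6 peaks. The TEAD word GGAATG, searched on both strands, was in 73 (35.1%, 28.9 to 41.8), against 17.1% and 17.9%. Both words together were in 31 regions (14.9%, 10.7 to 20.4), against 5.93% of all regions, and 140 (67.3%) held at least 1 of them, against 43.1%. The regions gained with 1 knockdown held the AP-1 word in 38.6% (shEZH2) and 39.8% (shE2F1) and the TEAD word in 24.0% and 22.9%. The regions lost in both knockdowns held them in 26.7% and 15.4%.

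GC content moved with these words. The median GC content of the summit windows was 44.3% in the gained regions and 51.2% over all regions, and AT-rich windows hold more AP-1 words. Within windows of 40 to 45% GC, 48.4% of the gained regions held the AP-1 word against 45.8% of all regions. Within 35 to 40% the shares were 37.2% and 46.6%, and within 45 to 50% they were 59.3% and 42.7%, so the AP-1 difference changed direction between steps of GC content, although the gained regions had the higher share in 4 of 5 steps. For TEAD the gained regions had the higher share in each step from 30 to 55%, for example 44.2% against 21.7% at 35 to 40% and 30.5% against 21.3% at 45 to 50%, although the lowest step held 8 gained regions.

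Other words were less frequent or near the level of all regions. The E2F words (TTTCCCGC, TTTCGCGC, TTTGCCGC and TTTGGCGC, on both strands) were in 1 gained region, nearest to KBTBD12 (0.481%, 0.0849 to 2.67), against 0.794% of all regions. The SP/KLF word GGGCGG, a mark of CpG-rich promoters, was in 2.88% against 16.6%, ETS (CCGGAA) in 1.92% against 5.55% and the CTCF core in 1.92% against 3.84%. RUNX (TGTGGT) was in 19.2% against 18.3%, the ZEB and SNAI word CAGGTG in 15.9% against 16.6%, FOX (TGTTTAC) in 4.33% against 3.01% and the E-box CACGTG in 1.44% against 4.01%. A word is a description of the sequence and does not show that a factor was bound. The AP-1 word was about as frequent in the regions shared with shSUZ12 as in the others. This library had a peak in 45.9% of the gained regions with it and in 48.2% of those without.

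**Figure D5:**
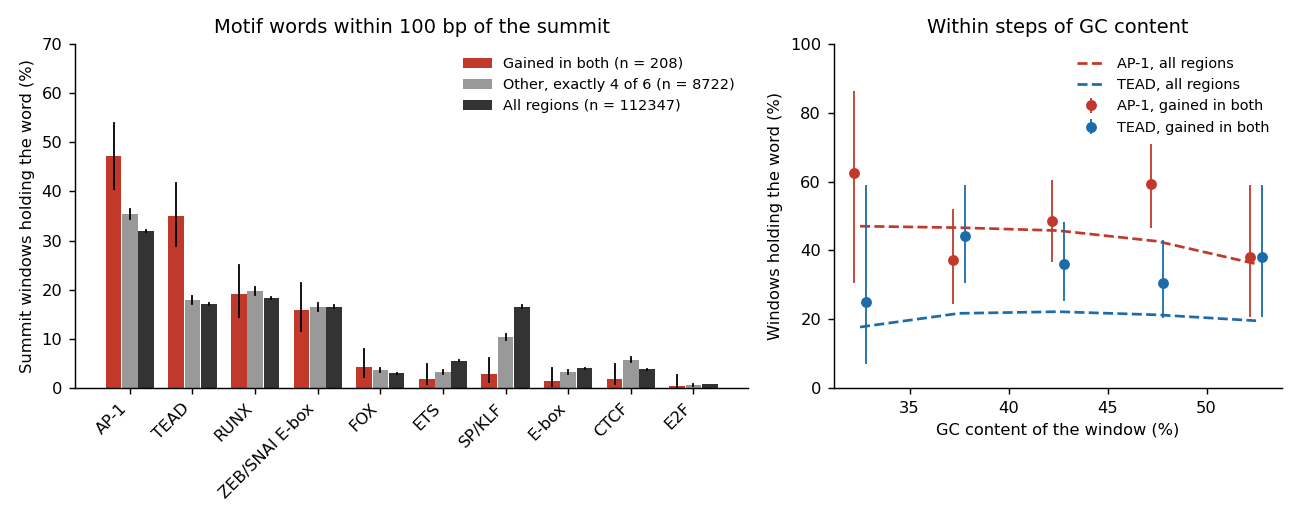
Left, share of summit windows (y axis, %) that hold each motif word within 100 bp of the summit (x axis) for the gained regions, the other regions with a peak in exactly 4 of the 6 libraries and all regions, with 95% Wilson intervals. Right, AP-1 and TEAD shares (y axis, %) by GC content of the window (x axis, %), with points and Wilson intervals for the gained regions and dashed lines for all regions. TEAD points lie above their dashed line in each step.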

How the data were processed

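ATAC-seq was measured in 9 libraries of MDA-MB-231 cells, grouped by the deposited labels. The authors aligned reads with Bowtie2 to GRCh38, with up to 4 alignments reported per read, shifted them for Tn5 and called peaks per library, with a peak caller that is not given in the sources used here. Each deposited list gives a score, a fold enrichment (ratio to local background) made by the authors, the −log10 of p and of q, and the summit. Read counts were not used here. Tags at the summit were computed from the deposited fold enrichment and −log10 p, with a tolerance of 0.002, and were whole for at least 99.9% of peaks.

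Peaks were merged at 1 bp of overlap, and a library was present in a region when any of its peaks overlapped it by 1 bp. A promoter reached 1 kb up- and downstream of the canonical start site, for 20033 protein-coding genes of GENCODE v44. Motif words were read from the GRCh38 genome. The given genome is in upper case, so a repeat-masked share could not be had, and copies of 31-base words on chromosomes 1 to 22, X and Y were counted instead. Shares have 95% Wilson intervals, and paired differences have exact intervals over the discordant regions; both cover counting error only. No test across regions was run. One of the marker genes looked up is not reported here. Regions named are the 10 with the highest of their lowest −log10 q, those at promoters, those in clusters of 3 or more, the first 10 by the same order with no peak in the single libraries, and 5 on each side of the calling limit; genes named are the nearest of these, those nearest to 2 or more regions and those of 7 lists. The regions, lists and motifs were chosen with earlier results of these data known. Alternatives were a −log10 q of at least 5, equal list lengths, summit windows, a larger overlap, a distance from Control shRNA peaks, other promoter, motif and cluster limits, and leaving out each library. Scripts were tested on simulated lists and used Python 3.11.15, numpy 2.4.6, pandas 2.3.3, scipy 1.17.1, pysam 0.24.0, numba 0.67.0 and matplotlib 3.10.9.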

Additional observations from a re-analysis of the deposited data

How the results depend on the processing

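The number of gained regions depended on which libraries and peaks were used. It was 454 when every list was limited to 58626 peaks, 318 with summit windows of 250 bp on each side, 198 at a −log10 q of at least 5 and 185 without regions that had a Control shRNA peak within 500 bp. Leaving out 1 library gave 263 to 714, and it moved the count by over 1.5 times for Control shRNA 1 (598), Control shRNA 2 (714), shEZH2 1 (339), shEZH2 2 (672) and shE2F1 1 (450). The paired difference in presence between shSUZ12 and DMSO ranged from −6.16 to 2.66 points when 1 library was left out, the lowest without Control shRNA 2. Between GSK126 and DMSO it ranged from −8.53 to −2.28. Without Control shRNA 1, Control shRNA 2 or shEZH2 2 the interval did not include 0. It held the −4.93 points of all regions, which came from the merge of all 6 libraries. With equal list lengths in the 3 single libraries the second difference was 7.69 points. The share at promoters was 15.4% with summit windows and 6.25% with the start sites of every transcript, and 2.07% to 4.20% on leaving out 1 library. The AP-1 share was 36.8% with summit windows, 34.6% within 50 bp of the summit and 56.7% over whole merged regions, and 41.5% to 49.0% on leaving out 1 library. Apart from these, 26 of 75 alternatives of the other results (presence in each library, width, distance to start sites and clustering) moved by more than the interval, 19 of them on leaving out a library. The share of gained regions within 100 kb of another ran from 2.28% to 9.10% there, highest without Control shRNA 2. The cause was not tested, except that leaving out a library loosens the rule and so adds regions. No paired analysis was possible because no test over replicates was run, and nothing in the labels ties libraries by replicate number. The paired differences above pair regions between 2 libraries, not replicates. The peak lists hold no reads, so a site under the calling limit cannot be told from a closed one.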
